A study of Homo sapiens with 18 samples.

Results

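4 stretches of the genome, chosen for known gains and losses of DNA in the human leukaemia line K562, were examined by MeDIP-seq, in which an antibody to methylated cytosine pulls down DNA pieces that are then sequenced. The windows were set by position in the build hg19 (the sequence of GRCh37). They were chromosome 9 from 1 to 47 Mb (called 9p here), the 6 Mb of chromosome 9 that start at 130 Mb, around ABL1 (9q34), chromosome 22 from 16 to 26 Mb around BCR (22q11), and chromosome 13 from 80 to 95 Mb (13q31). A region of the deposited MeDIP table belonged to a window if its midpoint fell inside it. Of 198884 regions in the table, 4383 did so, with 1911 in 9p, 1031 in 9q34, 1234 in 22q11 and 207 in 13q31. The rule used position alone.

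The study silenced B2M, the gene of the light chain of MHC class I, by programmable proteins that direct DNA methylation to its promoter. All cells, untreated ones included, were K562 with a B2M:tdTomato transgene, tdTomato being a red fluorescent protein. In each of 2 assays, MeDIP-seq and RNA-seq, 3 libraries came from untreated cells, 3 from cells silenced with TALE proteins and 3 from cells silenced with dCas9. Treated cells had been given 3 plasmids together, 1 per effector (ATR in the labels), and the dCas9 cells also a plasmid for a guide RNA. The labels do not say whether replicates were separate cultures, so p-values here measure only the spread between these libraries, which may be technical. Neither the time from treatment to collection nor whether the cells were 1 clone is given in the sources used here.

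K562 is known for a fusion of BCR on chromosome 22 with ABL1 on chromosome 9, present in many copies, whose product is a constantly active tyrosine kinase. It is also known to lack CDKN2A, a tumour suppressor gene on 9p. The MeDIP count of a stretch depends on how many copies of the DNA a cell holds, on how much of it is methylated and on how many CpG it has. Copies and methylation cannot be told apart in the files used here, and libraries made without immunoprecipitation were not analysed here.

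The sequences below lie just before the sharpest step of summed MeDIP counts within ABL1 and within BCR, and in a 13q31 region that has no CpG. All are GRCh37 plus-strand sequence, with every CG in capitals, cut to at most 300 bases nearest the step or around the middle of a region. The first region, in an intron of ABL1, has 6 CpG in 242 bp and held few counts in all, being short. Per kb it held 37.9 CPM (a scale defined below), beside 51.2 in the next region downstream, in the same intron. That next region opened the stretch of high summed counts in ABL1. The second sequence shown is from the region, with 36.9 CPM per kb, that closes the stretch of high summed counts in BCR.
ABL1 before the step, chr9:133600125-133600366: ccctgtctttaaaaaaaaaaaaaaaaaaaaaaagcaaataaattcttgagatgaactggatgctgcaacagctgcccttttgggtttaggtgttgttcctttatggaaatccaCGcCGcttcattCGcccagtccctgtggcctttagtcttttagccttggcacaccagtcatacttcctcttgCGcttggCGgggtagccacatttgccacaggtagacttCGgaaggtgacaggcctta
BCR before the step, chr22:23632183-23632482: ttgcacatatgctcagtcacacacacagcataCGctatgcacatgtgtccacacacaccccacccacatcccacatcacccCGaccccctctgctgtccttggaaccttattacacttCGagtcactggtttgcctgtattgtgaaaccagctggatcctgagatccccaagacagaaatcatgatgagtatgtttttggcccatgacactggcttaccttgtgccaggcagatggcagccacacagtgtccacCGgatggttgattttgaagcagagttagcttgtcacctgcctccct
13q31 region without CpG, chr13:90966556-90966855: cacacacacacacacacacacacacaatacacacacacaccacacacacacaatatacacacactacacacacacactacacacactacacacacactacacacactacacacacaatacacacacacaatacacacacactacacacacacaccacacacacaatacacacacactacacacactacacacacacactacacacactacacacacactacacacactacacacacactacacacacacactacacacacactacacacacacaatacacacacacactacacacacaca

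The stretch shown for BCR, on the side of high counts, has 4 CpG and is cut from a region with 61. In ABL1 the nearest 300 bases on the side of high counts have 13 CpG. In BCR the region of 294 bp on the side of low counts has 10. The 13q31 stretch has 0 CpG in 300 bases and is almost wholly made of CA repeats.

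MeDIP signal was high in both fusion windows and low in 9p and 13q31, in all 9 libraries. Levels are in CPM, the counts-per-million scale, taken over the sum of a library's counts in all regions, and given per Mb of assembled sequence. By this measure 9q34 held 2556 ± 17.0 (SD, n = 9) and 22q11 held 2796 ± 17.5. The rest of chromosome 9 held 321 ± 1.82 and the rest of chromosome 22 held 531 ± 6.02. The level of 9p was 134 ± 1.56, and that of 13q31 was 25.2 ± 1.39 against 147 ± 1.32 in the rest of chromosome 13. The windows took 1.5% (9q34), 2.71% (22q11), 0.606% (9p) and 0.0374% (13q31) of a library's counts on average.

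Relative to the rest of chromosome 9, counts per Mb in 9q34 were 7.90, 8.00 and 7.85 times as high in untreated replicates 1, 2 and 3. They were 7.96, 7.98 and 7.86 times as high in the TALE libraries, and 8.06, 7.87 and 8.07 times in the dCas9 libraries. In 22q11 the ratio was 5.26, 5.43 and 5.23 in untreated libraries, 5.20, 5.16 and 5.30 with TALE, and 5.24, 5.23 and 5.33 with dCas9. Every library of every group thus lay well above 1 in both windows, and the groups overlapped. The 9p ratio was 0.413, 0.419 and 0.417 in untreated libraries, 0.412, 0.430 and 0.411 with TALE, and 0.42, 0.416 and 0.427 with dCas9. In 13q31 it was 0.172, 0.160 and 0.18 in untreated libraries, 0.158, 0.181 and 0.173 with TALE, and 0.18, 0.178 and 0.160 with dCas9. Again all libraries lay on the same side of 1, here below it, with the groups mixed.

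On the log2 scale the mean ratio was 2.99 ± 0.015 (SD, n = 9) for 9q34, 2.40 ± 0.022 for 22q11, -1.26 ± 0.023 for 9p and -2.55 ± 0.082 for 13q31. An exact two-sided sign-flip permutation test over the 9 libraries gave p = 0.00391 in each window, the smallest that 9 libraries can give, and 0.00391 adjusted (Benjamini-Hochberg) over the 4 windows. All libraries come from 1 cell line, so the test speaks of the spread between libraries only. Without the 1% of all regions with the most counts, the log2 ratio of 22q11 was 0.80 and that of 9q34 was 1.97.

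**Figure D1:**
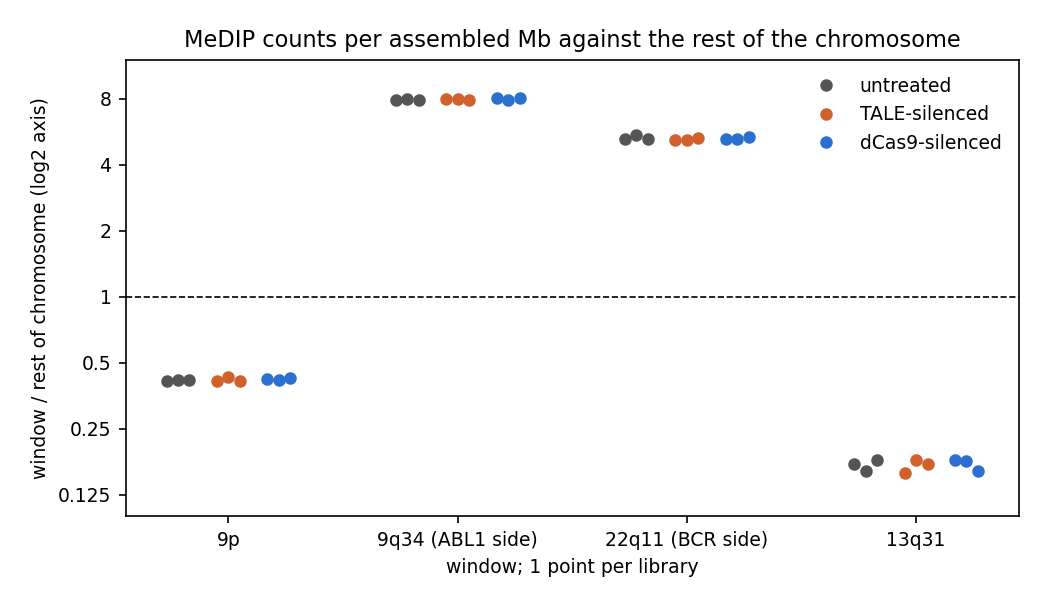
MeDIP counts per assembled Mb in each window divided by the same in the rest of its chromosome, on a log2 axis, with 1 point per library coloured by group. The libraries sit between 7.85 and 8.07 in 9q34 and between 5.16 and 5.43 in 22q11, and below 1 in 9p and 13q31, with the groups intermixed.

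The gain in the fusion windows and the deficit in the other windows were made up differently. Counts per Mb are the product of regions per Mb, base pairs per region and counts per covered kb. Relative to the rest of the chromosome, 9q34 had 2.38 times the regions per Mb, 1.42 times the length per region and 2.35 ± 0.025 times the counts per covered kb (SD, n = 9). In 22q11 the regions were 0.903 times as dense as in the rest of chromosome 22, but 2.12 times as long and 2.75 ± 0.042 times as rich per covered kb. The 22q11 density ratio was 1.14 for regions with a peak in at least 5 of the 9 libraries, so its direction depends on which regions are counted. In 9p the ratios were 0.573 for regions per Mb, 0.954 for length and 0.766 ± 0.012 for counts per covered kb. In 13q31 they were 0.266, 0.914 and 0.705 ± 0.039. The low windows thus differed from their chromosomes mostly in how many regions were listed, and 22q11 in how long and how full its regions were. The 3 ratios come from the same regions and are not independent of each other.

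**Figure D2:**
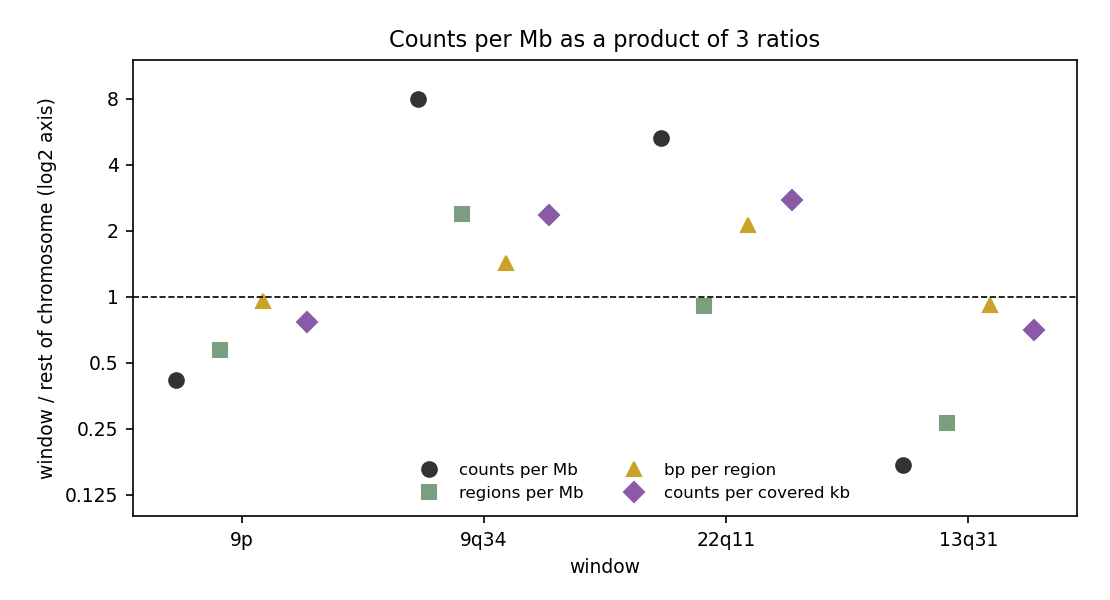
Ratio of each window to the rest of its chromosome, on a log2 axis, for counts per Mb and for the 3 ratios whose product it is (the mean of 9 libraries where counts enter). The 22q11 density ratio of 0.903 lies beside ratios of 2.12 for length and 2.75 for counts per covered kb, whereas in 13q31 the density ratio of 0.266 is the lowest of the 3.

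Regions of the windows also differed in how often they were found. A peak of all 9 libraries overlapped 45.6% of the 22q11 regions and 15.9% of those in the rest of chromosome 22. For 9q34 the share was 30.7% and for 9p 17.1%, against 23.9% in the rest of chromosome 9. It was 5.80% in 13q31 against 14.1% in the rest of chromosome 13. In 13q31, 45.4% of the regions rested on a peak of 1 library only, compared with 18.5% in the rest of that chromosome. Only 19 of the 207 regions of 13q31 passed the filter on low counts, while 850 of 1031 did so in 9q34, 921 of 1234 in 22q11 and 696 of 1911 in 9p. The member regions that passed are therefore mostly those of the fusion windows.

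The peak lists of the single libraries, called by the authors per sample, gave the same order of density. Peaks per Mb in 9q34 were 2.54 ± 0.085 times those in the rest of chromosome 9 (SD, n = 9), and in 9p 0.522 ± 0.022 times. In 13q31 the ratio was 0.166 ± 0.043, from 32 to 96 peaks per library. The 22q11 ratio was 1.15 ± 0.087, with the lowest library at 0.996 and the highest at 1.27. Peaks were longer in the fusion windows, on average 1515 bp in 9q34 against 1125 bp in the rest of chromosome 9, and 1817 bp in 22q11 against 1145 bp in the rest of chromosome 22.

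The fold enrichment of a peak, which is the authors' value, differed less between window and chromosome than the counts did. Its median in 9q34 averaged 2.55 ± 0.052 over libraries, beside 2.59 ± 0.043 in the rest of chromosome 9 and 2.38 ± 0.056 in 9p. In 22q11 it was 2.5 ± 0.062 beside 2.16 ± 0.063, and in 13q31 2.25 ± 0.12 beside 2.36 ± 0.027. In 22q11, 9p and 13q31 the median thus lay on the same side of the rest of the chromosome as the counts did, while in 9q34, with 7.95 times the counts per Mb, it lay within 1 SD of that of the rest. Which background the enrichment was taken against is not given in the sources used here.

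The genome's CpG are unevenly spread, and the windows differed in them. Assembled sequence held 19.7 CpG per kb in 9q34 and 8.20 in 9p, against 10.7 in the rest of chromosome 9. It held 16.3 in 22q11 against 16.7 in the rest of chromosome 22, and 5.99 in 13q31 against 8.85 in the rest of chromosome 13. Per CpG of assembled sequence, the ratio of counts to the rest of the chromosome was 4.33 ± 0.046 (SD, n = 9) in 9q34, 5.40 ± 0.083 in 22q11, 0.547 ± 0.0086 in 9p and 0.253 ± 0.014 in 13q31. Per CpG inside the listed regions the ratios were 2.41 ± 0.025, 3.16 ± 0.048, 0.731 ± 0.012 and 0.819 ± 0.046.

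Bins of 1 Mb were next set beside bins of like CpG density on the same chromosome. At 12 CpG per kb and over, the medians of both fusion windows still stood high. The 9p median lay below the rest in every class but that one. The 13q31 median lay above the rest in 1 class and below it in the other. All 6 bins of 9q34 held at least 12 CpG per kb, and their median of 2124 CPM per Mb compared with 531 in the 19 bins of the rest of chromosome 9 in that class. For 22q11, 9 bins in that class had a median of 3593 CPM per Mb, and the 19 bins of the rest of chromosome 22 had 627. The 13q31 bins with 6 to 8 CpG per kb had a median of 41.2 CPM per Mb (8 bins), and those of the rest of chromosome 13 had 27.8 (26 bins). In the class under 6 the 13q31 median was 0.904 (7 bins) beside 8.39 (15 bins). For 9p, the medians were 11 beside 19.4 CPM per Mb at 6 to 8 CpG per kb (16 and 18 bins), 147 beside 235 at 8 to 12 (17 and 28 bins), and 555 beside 531 at 12 and over (3 and 19 bins). The classes were set after the bin values had been seen, and the medians are a description.

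**Figure D3:**
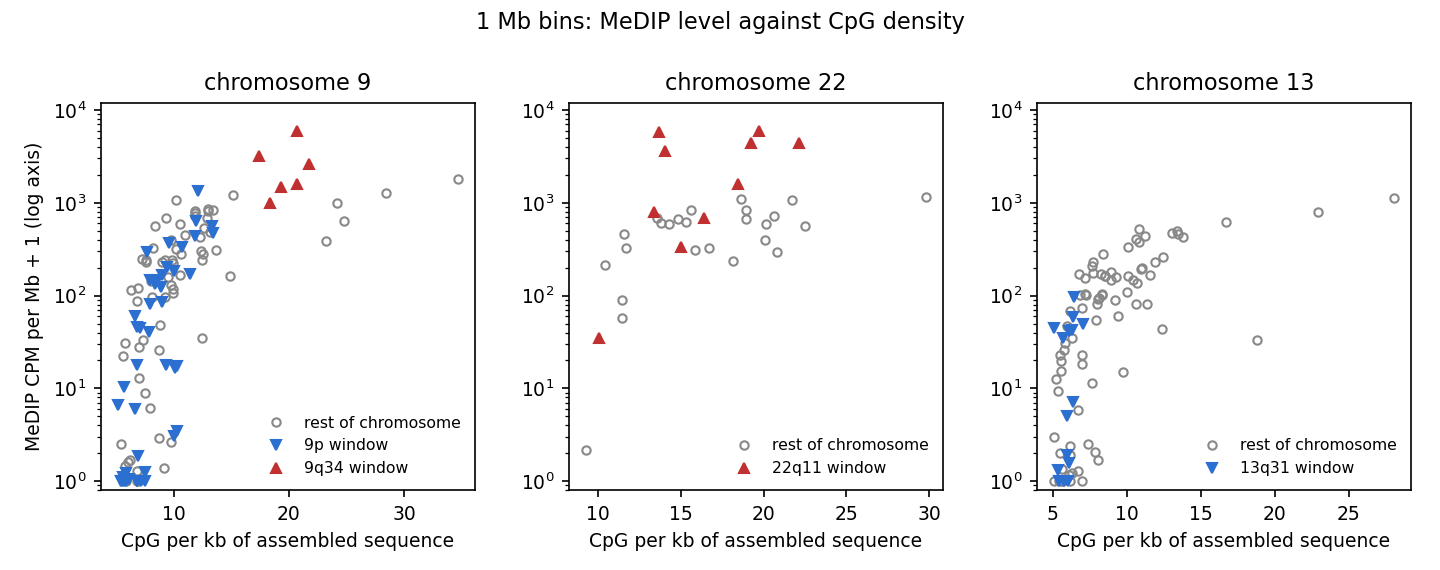
MeDIP CPM per Mb plus 1 (log axis) of 1 Mb bins against their CpG per kb, in 3 panels for chromosomes 9, 22 and 13, with window bins as filled triangles and the rest of the chromosome as open circles (means of 9 libraries). In the class of at least 12 CpG per kb, 3 of 6 bins of 9q34 and 6 of 9 of 22q11 lie above every open circle of that class, whereas the 9p and 13q31 bins lie mostly among the open circles.

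Within 9q34 the signal was not even. The fourth bin of 1 Mb, which holds all of ABL1, was the highest, at 5979 ± 79.2 CPM per Mb (SD, n = 9). The last bin was the lowest, at 988 ± 17.0. Of the 6 bins, 3 exceeded the highest bin of the rest of chromosome 9 (1820 CPM per Mb). In 22q11 the bin from 21 to 22 Mb was the highest at 5949 ± 81.0, and the bin from 16 to 17 Mb the lowest at 33.7 ± 5.43. The 6 bins from 18 to 24 Mb, between 1582 and 5949 CPM per Mb, all exceeded the highest bin of the rest of chromosome 22 (1152). The 2 bins from 24 to 26 Mb, at 678 and 334, lay on either side of the median bin of the rest (585).

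ABL1, the kinase gene of the fusion, held 35 regions with 3919 ± 66.5 CPM (SD, n = 9), or 22.4 CPM per kb of gene. Its counts were 14508, 10996 and 14807 in untreated libraries, 10112, 11395 and 16591 with TALE, and 11602, 17334 and 10909 with dCas9, in step with library size. The high summed counts began inside the gene. Among 34 gaps between neighbouring regions of ABL1, the step was largest at the one whose middle lies 16.3 kb from the gene's start, just after the region chr9:133600125-133600366. Within 20 kb before the middle of that gap, regions summed to 20.3, 23.5 and 30.6 CPM in untreated libraries, 19.4, 21.3 and 27.2 with TALE, and 25.7, 19.1 and 17.6 with dCas9. Within 20 kb after it they summed to 336, 357 and 319 CPM in untreated libraries, 354, 331 and 360 with TALE, and 349, 341 and 375 with dCas9. In these sums the high side was 15.2 times the low side on average, from 10.4 to 21.3 times in single libraries. No library of any group had a low sum near its high sum. Listed regions covered 0.995 kb on the low side and 6.37 kb on the high side. The step thus also holds a difference in covered length. Per kb, the regions just before and just after the gap held 37.9 and 51.2 CPM. The gap was taken as the largest of its kind after the values were seen, so the step is a description with no test.

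From there the signal came in blocks. In bins of 20 kb, those at 100 CPM or more formed 3 runs between 300 kb before and 700 kb after the start of ABL1. The first ran from 20 to 180 kb after the start, over the rest of ABL1, with 8 bins between 219 and 882 CPM. The second was a single bin from 240 to 260 kb (352 CPM), where no protein-coding gene is annotated. The third ran from 400 to 560 kb, over the end of AIF1L, NUP214 and part of FAM78A, with 8 bins between 131 and 640 CPM. Outside these runs bins held from 0 to 31 CPM, also over the 60 kb just after the first run, where no region was listed. The bounds of the runs rest on a threshold of 100 CPM set after the values were seen, and the nearest bins below it held 31 CPM (640 to 660 kb after the start) and 30.3 CPM (upstream of the gene).

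BCR, which supplies the fusion's first part, showed the mirror image. Its 27 regions held 3350 ± 64.6 CPM (SD, n = 9), 24.2 CPM per kb of gene, and the high summed counts ended inside the gene. Among 26 gaps, the step was largest at the one whose middle lies 120 kb from the start, just after the region chr22:23629265-23632482. The 20 kb before the middle of the gap summed to 278, 321 and 315 CPM in untreated libraries, 304, 312 and 314 with TALE, and 323, 308 and 333 with dCas9. After it, the single region summed to 2.37, 4.70 and 5.60 CPM in untreated libraries, 7.51, 6.08 and 7.51 with TALE, and 7.44, 5.79 and 7.71 with dCas9. In these sums the high side was 51.3 times the low side, from 40.5 to 117 times in single libraries. Again the 2 sums did not come near each other. Listed regions covered 7.16 kb on the high side and 0.294 kb on the low side. This step, too, thus holds a difference in covered length. Per kb, the regions just before and just after the gap held 36.9 and 20.7 CPM. The low side rests on between 9 and 32 counts per library.

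Around BCR, 7 bins of 20 kb from 20 kb before to 120 kb after the gene's start held between 107 and 794 CPM. The 24 bins before them, over the IGLL5, RSPH14, GNAZ and RAB36 genes, held at most 52.4 CPM and 15 of them had no region. The 19 bins after them, including the end of BCR, held at most 22.4 CPM, and 13 had no region.

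**Figure D4:**
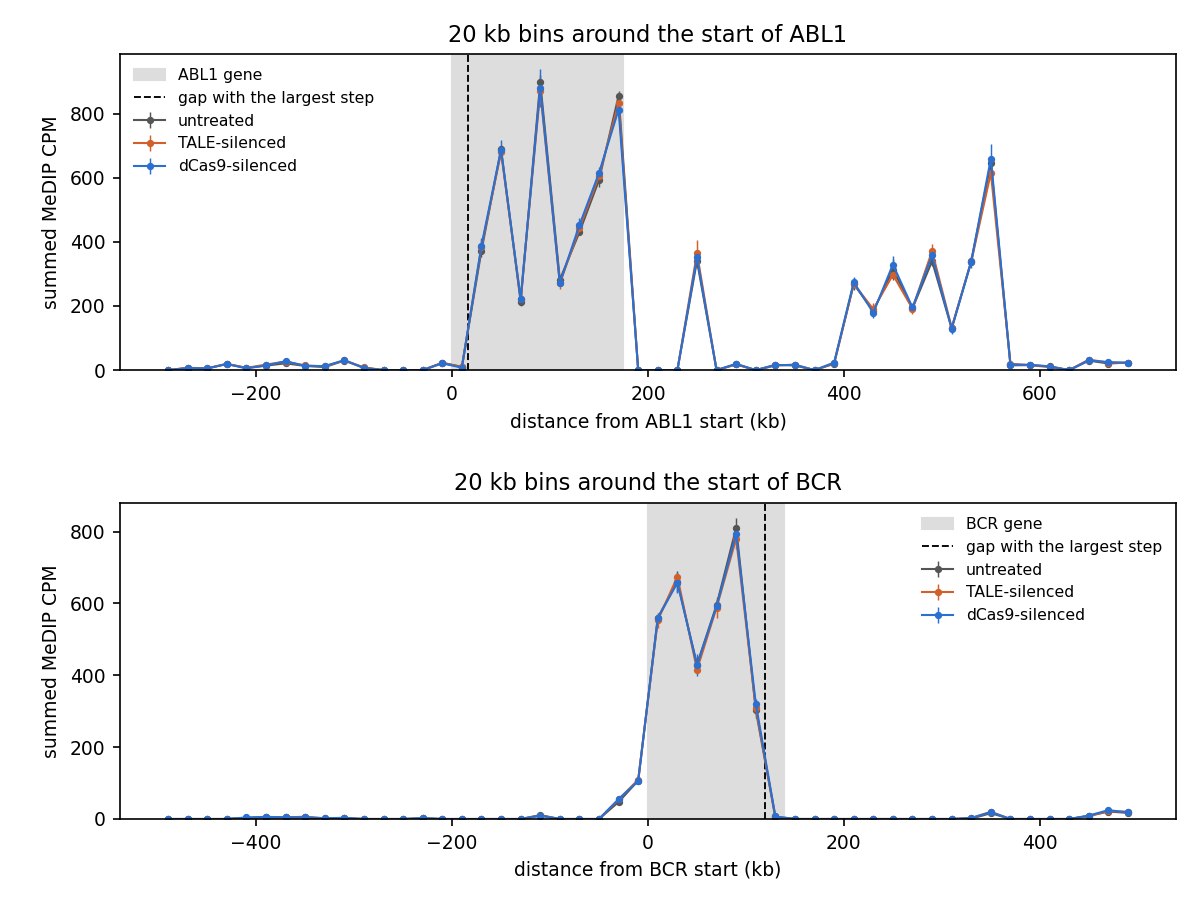
Summed MeDIP CPM in 20 kb bins by distance in kb from the start of ABL1 (top) and BCR (bottom), as group means of 3 libraries with error bars of 1 SD, the gene shaded and the gap with the largest step dashed. The lines of the 3 groups lie on each other, rise inside ABL1 and again from 400 to 560 kb after its start, and fall inside BCR.

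Single regions were ranked by CPM, which grows with their length. The highest of all 4 windows was chr9:133682157-133691520, in an intron of ABL1, with 144 CpG in 9364 bp and 53.5 CPM per kb. Per covered kb the 3 regions from 133.8 to 133.9 Mb, where the second run lies, held more, at 278 ± 18.7 CPM (SD, n = 9). The ABL1 region held 1884, 1394 and 1944 counts in untreated libraries, 1254, 1462 and 2067 with TALE, and 1505, 2116 and 1456 with dCas9, or 501 ± 18.6 CPM. Next in 9q34 came chr9:133760793-133769519 (413 ± 18.2 CPM), over the last exons and 3′ UTR of ABL1 and over QRFP, which codes for a neuropeptide. The third was chr9:134105932-134114819 (270 ± 11.8 CPM), over the last exons of NUP214, a component of the nuclear pore. In 22q11 the 3 regions with the highest CPM all lay in BCR, at chr22:23605666-23613702 (426 ± 19.2 CPM, exons), chr22:23615156-23620930 (369 ± 18.8, exons) and chr22:23550783-23557024 (347 ± 12.7, intron). Each of these 6 regions had a peak in all 9 libraries. None of these 6 regions was called between groups by edgeR.

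The other listed genes of 9q34 were lower per kb of gene than ABL1. Of 18 listed genes, 17 held at least 1 region, the exception being PRDM12, a regulator of sensory neurons. NUP214 stood at 11.9 CPM per kb of gene, with 28 regions and 1301 ± 36.7 CPM (SD, n = 9). RAPGEF1, an exchange factor for small GTPases, had 1.58 CPM per kb, FNBP1, a membrane-shaping protein, 1.53, and TSC1, a growth suppressor, 1.06. EXOSC2, an exosome subunit directly upstream of ABL1, had 0.631 CPM per kb, and LAMC3, a laminin chain between ABL1 and NUP214, had 0.367. Listed regions covered only 0.484 kb of LAMC3. Per covered kb it was not low, at 64.7 ± 9.68 CPM, beside 53.0 in ABL1, 45.1 in NUP214 and 38.2 in EXOSC2. GFI1B, a transcription factor of red cell formation, had 0.615.

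In 22q11, 22 of the 27 listed genes held a region. The level per kb of gene was highest, after BCR, in TOP3B, a topoisomerase, at 18.1 CPM. DGCR8, a microRNA processing factor, had 14.5, and CRKL, an adaptor protein phosphorylated by the fusion kinase, had 11.3 CPM per kb. HIRA, a histone chaperone, had 5.49 and CLTCL1, a clathrin chain, 2.36. XKR3, a gene reported as a fusion partner of NUP214 in K562, held 9 regions and 1.91 CPM per kb. Among genes beyond 24 Mb, SMARCB1, a chromatin remodelling subunit, had 2.41 CPM per kb, and the level was 0.826 in GGT1, a glutathione enzyme, and 0.18 in ADORA2A, an adenosine receptor. VPREB1 and IGLL1, which make up the surrogate light chain of immature B cells, RAB36, MIF and CRYBB3 had no region with its midpoint in the gene.

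Some of the regions lay at starts of listed genes. A region lay within 2 kb of the start of 19 of the 27 listed genes of 22q11, against 7 of 18 in 9q34, 6 of 20 in 9p and 2 of 7 in 13q31. The fullest of them were at DGCR8 (228 CPM), NUP214 (209 CPM) and TOP3B (116 CPM). At the starts of ABL1 and BCR themselves the regions held 13.6 and 11.2 CPM. The difference between windows in this count was not tested.

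On 9p, the CDKN2A locus held no region. Of the 22 listed genes, DMRT1 and KANK1 start before 1 Mb and lie outside the window. Of the other 20, 11 had no region, namely MLLT3, a subunit of an elongation complex, the interferon genes IFNB1, IFNA1, IFNA2 and IFNE, MTAP, an enzyme of methionine salvage, CDKN2A, CDKN2B and CDKN2B-AS1, which code for cell cycle inhibitors and their antisense RNA, DMRTA1 and ELAVL2. The longest stretch of assembled sequence without a region in 9p ran from chr9:22597791 to 26512954, over 3.92 Mb, and held 23904 CpG. No library had a peak in it. The longest such stretch in the rest of chromosome 9 was 2.13 Mb. A place without a listed region is not always one without a peak in a library. For such places low copy and low methylation cannot be told apart. CpG density is known, at 6.11 per kb in the 9p stretch and 8.20 in all of 9p, but its part was not tested.

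Along its whole length, 9p was uneven. Of its 46 bins of 1 Mb, 8 had no region, against 2 of 70 in the rest of chromosome 9. The 6 bins from 20 to 26 Mb, which take in the CDKN2A locus, held 10 regions in all and at most 17.0 CPM per Mb. Away from that locus, the 6 bins from 8 to 14 Mb held 15 regions and at most 5.62 CPM per Mb. The 5 bins from 33 to 38 Mb held 780 regions and between 432 and 1326 CPM per Mb, all above the median bin of the rest of chromosome 9 (225). The bin from 37 to 38 Mb was the highest of the window. These groups of bins were picked after their values were seen.

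Listed genes of 9p that did hold regions included JAK2, the kinase of cytokine receptors, with 31 regions, 84.9 ± 8.92 CPM (SD, n = 9) and 0.583 CPM per kb of gene. KDM4C, a histone demethylase, had 89 regions and 0.552 CPM per kb, SMARCA2, a chromatin remodelling ATPase, 42 regions and 0.427, and NFIB, a transcription factor, 23 regions and 0.219. MELK, a mitotic kinase, had 1.33 CPM per kb and TLN1, which links integrins to actin, 1.02. PAX5, the master factor of B cells, held 1 region and 0.00776 CPM per kb, and TEK, a receptor of blood vessel cells, held 2 regions and 0.0151. The region of 9p with the highest CPM was chr9:44992291-44999054, in an exon of FAM27C, with 56.7 ± 5.75 CPM. FAM27C has near-identical copies around the centromere, so its counts are uncertain. The next were in introns of SLC25A51 (43.5 ± 4.76 CPM), a mitochondrial carrier, and EXOSC3 (38 ± 3.98 CPM), an exosome subunit.

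The 13q31 window held isolated regions rather than a raised stretch. Its 15 bins of 1 Mb lay between 0 and 96.1 CPM per Mb, with 3 bins without a region, and the highest, from 92 to 93 Mb, was near the median bin of the rest of chromosome 13 (87.9). The longest stretch without a region, from chr13:84537547 to 87155186, had 2.47 Mb of assembled sequence, as long as the longest in the rest of chromosome 13 (2.47 Mb). In 1 library there was 1 peak there, and the other 8 had none. Of the 7 listed genes, SLITRK1, SLITRK5 and SLITRK6, membrane proteins of neurons, had no region. GPC6, a glypican, had 0.0206 CPM per kb of gene, and GPC5, another glypican, had 41 regions but 0.0556 CPM per kb over a very long gene. MIR17HG, the host of a microRNA cluster, had 0.716, and SPRY2, an inhibitor of growth factor signalling, 0.600.

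The 3 regions of 13q31 with the most counts lay in GPC5, in MIR17HG and between genes. The first, in an intron of GPC5, held 105, 67 and 98 counts in untreated libraries, 84, 93 and 124 with TALE, and 119, 117 and 63 with dCas9, or 29.0 ± 5.32 CPM. The second, chr13:92005031-92005506 in an exon of MIR17HG, held 20 ± 2.40 CPM, with between 51 and 98 counts per library. The third, chr13:90966485-90966927, lies between genes and holds no CpG, yet each library had a peak there, and the counts were 56, 44 and 71 in untreated libraries, 41, 43 and 71 with TALE, and 74, 76 and 68 with dCas9 (18.2 ± 4.06 CPM). Per kb these regions reached 39.4, 42.0 and 41.1 CPM, against a median of 4.78 CPM per kb over all regions of the window.

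RNA of the same kinds of cells was measured in a separate set of libraries. Genes of red cell formation, by which K562 is known, were present. HBG2, a fetal globin, stood at 3722 ± 683 CPM (SD, n = 9), and HBG1, HBE1, HBZ, GATA1, KLF1 and TAL1 at 54.4 CPM or more. Among markers of other blood cells, PTPRC, a leukocyte surface phosphatase, was at 242 ± 42.7 CPM and CD3E, MS4A1, CD14, MPO and ELANE averaged between 0.0130 and 0.288 CPM. In such bulk samples fewer cells with a transcript and less RNA per cell cannot be told apart.

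The share of genes detected in RNA differed from window to window, in values that were not tested. Of 121 annotated genes of 9q34 matched by symbol, 60.3% had a mean of at least 1 CPM (exact Clopper-Pearson 95% interval 51.0 to 69.1%). In the rest of chromosome 9 it was 30.8% of 778 (27.6 to 34.2%). In 9p it was 23.2% of 478 (19.5 to 27.3%), and in 13q31 5.00% of 80 (1.38 to 12.3%) against 22.4% of 940 in the rest of chromosome 13 (19.8 to 25.3%). The 22q11 share, 20.3% of 369 (16.3 to 24.8%), lay below the 46.1% of 421 in the rest of chromosome 22 (41.2 to 51.0%). Among protein-coding genes alone the shares were 79.5% (9q34) and 47% (9p), against 53.1% in the rest of chromosome 9. They were 54.5% in 22q11 against 64.0% in the rest of chromosome 22. In 13q31 the share was 28.6% of only 7 genes, against 59.7% in the rest of chromosome 13. Among these genes only the 9q34 interval did not overlap that of the rest of its chromosome. The kinds of gene annotated in a window thus weigh on the shares. The intervals cover counting error only, and neighbouring genes are not independent.

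In RNA, NUP214 stood at 1470 ± 244 CPM (SD, n = 9), between 1118 and 1929. PRAME, a tumour antigen of 22q11, had 1027 ± 70.6, SET, a histone chaperone of 9q34, 557 ± 88.2, and CRKL 441 ± 30.3 CPM. ABL1 stood at 139 ± 26.7 and BCR at 78.2 ± 12.7 CPM. These RNA levels are per gene and not per length, so they are not compared between genes. Of the 11 listed 9p genes without a MeDIP region, 10 had under 1 CPM of RNA. CDKN2A had 5 counts in all 9 libraries together, CDKN2B 3, MTAP 3 and IFNA1 0, while MLLT3 had 2.36 ± 0.73 CPM. MTAP is a gene that most cells use, and why its RNA was so low here was not tested. Of the 9 listed genes of 9p with a region, 6 reached 1 CPM, among them TLN1 at 301 ± 47 and JAK2 at 68.4 ± 6.73 CPM.

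No difference between groups passed the test in any window. Over the 4 windows and 4 contrasts (each silenced group with untreated, the silenced groups with each other, and both together with untreated), the differences in mean log2 ratio to the rest of the chromosome lay between -0.023 and 0.017. In all 16 the groups overlapped. Exact two-sided permutation tests gave p between 0.3 and 1.0, and 1.0 after adjustment over the 16. With 3 libraries against 3 the smallest p is 0.1, and with 6 against 3 it is 0.0119. In the highest bin of 9q34 the level was 5967 ± 59.4 CPM per Mb in untreated libraries, 5993 ± 107 with TALE and 5977 ± 98.6 with dCas9 (SD, n = 3). In the highest bin of 22q11 it was 5881 ± 46.6, 5976 ± 53.7 and 5989 ± 104.

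At single regions the result was the same. Of the 2486 member regions that passed the filter on low counts, edgeR's quasi-likelihood test called 0 in each of the 4 contrasts at an adjusted p under 0.05. Over all 105652 regions tested, the share called was 0% when TALE was compared with untreated, 0.000947% when dCas9 was, 0.000947% between TALE and dCas9, and 0% when both silenced groups were set against untreated. An unadjusted p under 0.05 was reached by 116, 128, 91 and 138 member regions in these contrasts, in the same order. These are 4.67%, 5.15%, 3.66% and 5.55% of the members tested, beside 4.74%, 4.69%, 4.47% and 4.88% of all regions tested. DESeq2 also called 0 member regions in each contrast, with 66, 67, 51 and 80 at an unadjusted p under 0.05. By DESeq2 these are 2.655%, 2.695%, 2.051% and 3.218% of the members tested. The shares of all regions tested were 2.519%, 2.478%, 2.369% and 2.582%.

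The member region with the smallest p for silenced against untreated was chr9:134347847-134348082, in an intron of PRRC2B. It held 48, 32 and 31 counts in untreated libraries, 11, 21 and 24 with TALE and 9, 38 and 11 with dCas9, a log2 change of -0.94 ± 0.27 (SE) and an adjusted p of 0.950 by edgeR. For TALE against untreated it was chr9:37585590-37585909, in an intron of TOMM5, a mitochondrial import subunit, with 12, 10 and 24 counts in untreated libraries and 6, 0 and 4 with TALE (log2 change -2.05 ± 0.61, edgeR adjusted p = 1.00). For TALE against dCas9 it was chr9:130752268-130752566, which lies between genes, with 11, 20 and 26 counts with TALE and 8, 6 and 5 with dCas9 (log2 difference 1.58 ± 0.49, edgeR adjusted p = 1.00). None of the 3 regions passed the test. They were picked by their p-values, so how far apart their groups lie is no further evidence.

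The MeDIP libraries held between 2529729 and 4492751 counts over all regions, and the RNA libraries between 8460076 and 12050554. Replicates of 1 group differed by more than counting error, with a chi-square per degree of freedom between 1.84 and 1.94 over regions, so none was a copy of another. At 1 CPM a region holds only a few counts in a library. A difference at a region of 9p or 13q31, with medians of 2.06 and 1.39 CPM, was therefore much less detectable than one at a region of 9q34 (5.50) or 22q11 (7.45).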

How the data were processed

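MeDIP-seq and RNA-seq were each measured in 9 libraries, 3 per group by sample title. The authors deposited raw counts per region (MeDIP) and per gene (RNA), which are whole numbers, and for each MeDIP library a peak list with a score, a fold enrichment and −log10 of p and q per peak. Per the submitters' processing notes, BWA 0.7.5, Picard, MACS2 and bedtools were used for MeDIP and STAR 2.3.0 for RNA, all with hg19. How the regions were set, which counter and annotation gave the RNA counts and whether strand was used are not given in the sources used here. Regions overlapping repeats or duplicated sequence depend on how the authors treated reads with several matches, and a low-mappability stretch can lack regions for that reason.

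The windows, gene lists and alternatives were chosen with earlier results of these data known. Regions were assigned by midpoint. Counts were scaled to CPM by the library's sum over all regions and divided by assembled (non-N) length of GRCh37, in which all 24 primary chromosomes held 0 regions past their end. Annotation was GENCODE on GRCh37, and 3187 of 5373 genes on the 3 chromosomes (59.3%) matched the RNA table by symbol. Window ratios were tested by exact sign-flip and permutation tests (Python 3.11.15, numpy 2.4.6). Regions were tested across the whole table with edgeR 4.0.16 in R 4.3.3 (glmQLFit and glmQLFTest, TMM, filterByExpr with a minimum of 10 counts, 1 model of group means, Benjamini-Hochberg over 105652 regions), tested on simulated data first, with DESeq2 1.42.0 as an alternative. SE values were derived from the test statistic. Named regions were the 3 with the highest mean CPM per window, any called region, the one with the smallest p per contrast and those within 2 kb of a listed gene's start; named genes came from the lists; some of these genes, regions and sequences are not reported here. The gaps within ABL1 and BCR, the runs of bins, the classes by CpG density and the regions without CpG were added after the values were seen. Alternatives concerned length, filter, reference, unit, window bounds, tool, the replicate block and leaving out each library. With 2529729 to 4492751 MeDIP counts per library, intervals cover counting error only.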

Additional observations from a re-analysis of the deposited data

How the results depend on the processing

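The ratio of each window to the rest of its chromosome kept its direction and its side of the threshold in all 69 alternatives. The libraries lay close together and on the same side of 1, so the threshold could hardly be missed and adds no support. The size of the ratio did not always hold. The log2 ratio of 22q11 was 0.80 without the 1% of regions with the most counts and 2.98 with all other autosomal sequence as reference, and that of 13q31 was -3.81 with that reference and -3.45 with regions that passed the count filter. The density ratio moved with regions that had a peak in at least 5 libraries, to 0.5004 (9p), 2.64 (9q34), 1.14 (22q11) and 0.0964 (13q31). With length that includes N bases it was 0.723, 2.99, 1.44 and 0.326. Protein-coding genes alone gave RNA shares of 47% (9p) and 79.5% (9q34), beside 53.1% in the rest of chromosome 9. They gave 54.5% (22q11) beside 64.0% and 28.6% (13q31) beside 59.7% in the rest of the chromosome.

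Of 292 alternatives to the differences between groups, 26 changed the sign of a value near 0. With all other autosomal sequence as reference the log2 difference was -0.0012 for TALE against untreated in 9q34, 0.0011 for TALE, 0.0016 for dCas9 and 0.0014 for silenced against untreated in 22q11, and -0.0098 for silenced against untreated in 13q31. It was 0.105 for TALE against untreated in 13q31 with the count filter, and -0.0014 in 9p ended at 38 Mb. Leaving out 1 library gave ranges across 0. In 13q31 they ran from -0.050 to 0.050 (TALE), -0.031 to 0.070 (dCas9) and -0.040 to 0.043 (silenced) against untreated, and from -0.075 to 0.035 for TALE against dCas9. In 22q11 they ran from -0.020 to 0.0067 (dCas9) and from -0.027 to 5.5e-05 (silenced), in 9p from -0.017 to 0.016 and in 9q34 from -0.0027 to 0.010 (TALE). The cause was not tested.

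The count of member regions called stayed at 0 in all 55 alternatives. Same-numbered libraries of different groups did not deviate together (r between -0.0043 and 0.0044 over 9 pairs). For different numbers r lay between -0.0085 and 0.0084 over 18 pairs. No shared deviation was thus detected, but this cannot show whether same-numbered libraries were handled together. With the replicate block the calls stayed at 0, and the paired window differences, with adjusted p = 1.0 by an exact sign-flip test whose smallest p with 3 pairs is 0.25, changed no call. Depth limits 13q31, where 19 regions passed the filter on low counts.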

Other observations

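Most methylated cytosine in human cells lies in CpG. Of the 4383 member regions, 72 (1.64%) held no CpG, beside 4280 of 198297 (2.16%) on all primary chromosomes. Of the 72, 7 passed the filter on low counts and 5 had a peak in all 9 libraries. Besides the one between genes in 13q31, the fullest was chr9:35913489-35914395, in an intron of SPAAR on 9p, with 47, 47 and 55 counts in untreated libraries, 43, 55 and 70 with TALE and 55, 60 and 48 with dCas9 (16.2 ± 2.23 CPM; SD, n = 9). Both hold the run ACACACAC on 1 strand or the other, a motif that includes no CG and that 190 of the 2486 member regions tested (7.64%) and 5.60% of all regions tested also hold. Of the 190 regions without CpG that passed the filter in the whole table, 44 held it. These regions were picked after their values were seen, and the share that holds the motif was not tested.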
